A study of Mus musculus with 7 samples.

Results

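The genes described here are 9 vasoactive genes of the 55401 in the deposited count table. They are the nitric oxide synthases Nos1, Nos2 and Nos3, the endothelin ligand Edn1 with its receptors Ednra and Ednrb, the angiotensin-converting enzyme Ace, the angiotensin receptor Agtr1a and the prostacyclin synthase Ptgis. They were chosen by name, and each was found once in the table by its GENCODE vM21 symbol. All 9 had reads, and 8 passed the filter on low counts, which kept 17465 genes. Nos1 did not pass.

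RNA came from the right lung lobes of 7 male C57BL/6 mice, 1 library per mouse. All 7 had been given bleomycin, which injures lung tissue and leads to scarring, at an age of 6 to 8 weeks, so there was no uninjured lung to compare with. From day 7, 3 mice breathed hyperbaric oxygen (HBO) in a pressure chamber at 2.5 ATA for 90 min per day on 14 days in a row (BLM+HBO), while 4 did not (BLM). The sample records place the BLM mice in the chamber without oxygen pressure, the methods call them untreated, and which applied was not settled here. Lungs of both groups were taken on day 21. Mice that lost too little weight after bleomycin had been left out by the authors.

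Vascular tone in the lung is set by opposing signals. Nitric oxide, made from arginine by the nitric oxide synthases, and prostacyclin, made by Ptgis, relax vascular smooth muscle. Endothelin-1 and angiotensin II contract it through receptors of the muscle cell and are also known to act on fibroblasts, and the endothelium of lung capillaries is a major site of Ace. The comparison asked whether RNA levels of these genes differed between bleomycin lungs with and without HBO.

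Ptgis was lower in BLM+HBO, by 1.5003-fold, and of the 8 tested genes it was the one that passed the limits used, P below 0.05 before adjustment together with more than a 1.5-fold difference in edgeR's quasi-likelihood test (a gene past both is called here). Of all 17465 tested genes, 6.29% were called, 3.4% higher and 2.89% lower in BLM+HBO. None of the 8 passed a Benjamini-Hochberg adjusted P below 0.05 in edgeR, DESeq2 or limma-trend, and 1 had an unadjusted edgeR P below 0.05, against 10.7% of all tested genes. DESeq2 also called Ptgis alone, with 6.72% of all tested genes called. Log2 fold changes (BLM+HBO over BLM throughout) were negative for 5 genes and positive for 3, with a median of -0.18 beside 0.01 over all tested genes. Counts scaled to the library size (CPM) overlapped between the 2 groups for every one of the 9 genes, while they did not overlap for 8.76% of all tested genes. The other 7 tested genes did not pass the limits, which does not show that the groups were alike.

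The libraries held between 18157161 and 26365969 counts. On the first principal component of log2 CPM (37.3% of the variance), the second BLM+HBO mouse lay at -0.996, nearer the BLM mice (-47.6 to -6.08) than the other BLM+HBO mice (37.8 and 54.8). By a chi-square per gene over counts, it differed least from the fourth BLM mouse (13.0) and the third BLM mouse (19.0), while mice of the same group differed from each other by 22.1 to 64.3. Values without it are given for the genes described below whose call differs. In bulk lung RNA, fewer cells of a type and less RNA per cell cannot be told apart. Endothelial markers were present in every mouse, led by Vwf and Cdh5, and none of 11 was called (1 had an unadjusted P below 0.05 by edgeR). Their summed CPM was 3618 to 4566 in BLM and 3943 to 4599 in BLM+HBO. Vwf was at 914 to 1109 CPM in BLM and 642, 838 and 797 CPM in BLM+HBO, while the log2 fold changes of the other 10 were positive, and these summed to 2613 to 3554 CPM in BLM and 3809, 3105 and 3802 CPM in BLM+HBO. Markers of heart muscle were called higher in 10 of 10, led by Myh6 and Tnnt2, with a summed CPM of 72.7 to 199 in BLM and 744, 587 and 173 in BLM+HBO.

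To compare levels between genes, CPM was divided by exon length in kilobases (RPKM). Ace had the highest level, 226 ± 51.8 RPKM (SD, n = 7 mice), above 99.1% of tested genes. Ptgis followed at 43.6 ± 13.4, Edn1 at 21.0 ± 9.20 and Ednra at 14.3 ± 2.95 RPKM. Then came Ednrb at 9.28 ± 3.29, Nos3 at 8.72 ± 1.82, Nos2 at 4.42 ± 1.53 and Agtr1a at 2.78 ± 0.466 RPKM. Nos1 was last at 0.0202 ± 0.0140 RPKM. Ranges over the 7 mice separated Ace from Ptgis and Agtr1a from Nos1, and every other pair of neighbours in this order overlapped.

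**Figure D1:**
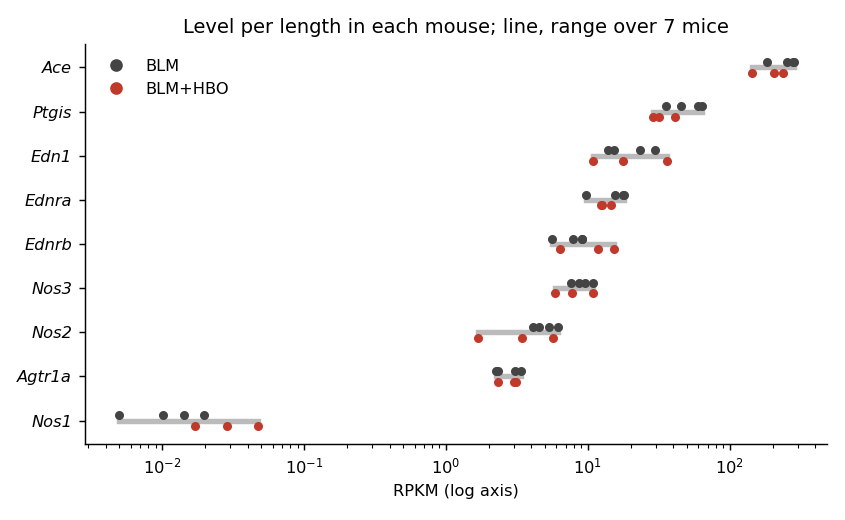
RPKM of each of the 9 genes (log axis) in 4 BLM mice (grey points) and 3 BLM+HBO mice (red points), with a line over the range of all 7. Ace lies apart at the top with a mean of 226 RPKM and Nos1 apart at the bottom with 0.0202 RPKM, while the ranges of neighbours between Ptgis and Agtr1a overlap.

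Nos3 (ENSMUSG00000028978.12, chr5:24364810-24384474, plus strand) encodes the endothelial synthase. It was at 31.3, 39.2, 44.7 and 35.7 CPM in the 4 BLM mice and at 24.3, 32.2 and 44.9 CPM in the 3 BLM+HBO mice. The groups overlapped, with the lowest and the highest value both in BLM+HBO. The first BLM+HBO mouse was below every BLM mouse. The log2 fold change was -0.16 (SE 0.20, adjusted P = 0.814 by edgeR's quasi-likelihood test), and it was 0.032 without the first BLM+HBO mouse. Of its exon bases, 32.3% are shared with genes of the other strand, Atg9b and Gm15587, and the counting used no strand, so its counts are uncertain.

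Nos2 (ENSMUSG00000020826.9, chr11:78920787-78960254, plus strand) encodes the inducible synthase, which macrophages and other cells make under inflammatory signals. It was at 23.6, 20.0, 18.3 and 27.3 CPM in BLM and at 7.44, 25.3 and 15.1 CPM in BLM+HBO. The first and the third BLM+HBO mice were below every BLM mouse, and the second was above all but the fourth BLM mouse. The log2 fold change was -0.48 (SE 0.34, adjusted P = 0.627 by edgeR). Without the second BLM+HBO mouse it was -0.98 (SE 0.29, edgeR adjusted P = 0.133), which passed the call limits. In that fit 10.7% of 17879 genes were called. Adjusted P of Nos2 ran from 0.133 to 0.901 over the alternatives. Of 10 macrophage and monocyte markers, led by Lyz2 and Csf1r, 3 were called lower (Mrc1, Adgre1 and Marco). Log2 fold changes were negative for 5 of the 10 and positive for 5. The summed CPM of the 10 was 5392 to 6918 in BLM and 8633, 6088 and 7241 in BLM+HBO. Most of this sum was Lyz2, at 4359 to 6025 CPM in BLM and 7881, 5192 and 6621 CPM in BLM+HBO. The other 9 summed to 887 to 1034 CPM in BLM and 752, 896 and 620 CPM in BLM+HBO, where the first and the third BLM+HBO mice were below every BLM mouse, while both were above every BLM mouse in the full sum. Their part in the Nos2 values was not tested.

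Nos1 (ENSMUSG00000029361.18, chr5:117781032-117958840, plus strand), the neuronal synthase, had 1, 2, 4 and 3 reads in the BLM libraries and 6, 4 and 14 in the BLM+HBO libraries. That is 10 reads of 74341690 and 24 of 65155521. In CPM these are 0.0550, 0.113, 0.219 and 0.158 in BLM and 0.319, 0.191 and 0.524 in BLM+HBO, and the groups overlapped at the second BLM+HBO mouse. A two-sided exact permutation test of CPM over the 35 assignments of the mice gave P = 0.0571 (the smallest it can give is 0.0286). The test did not reach the threshold, and the counts behind it were 1 to 14 reads per library. Of 8 neuron markers, led by Uchl1 and Ret, 3 passed the filter, with a summed CPM of 28.2 to 36.4 in BLM and 15.8, 30.9 and 30.1 in BLM+HBO. Nos1 is also made in muscle fibres, and 7 skeletal muscle markers, led by Tnnt3 and Ckm, summed to 4.84 to 8.16 CPM in BLM and to 15.2, 10.2 and 7.11 CPM in BLM+HBO. Of these 7, 4 passed the filter, with 1 called higher and 1 called lower. The part of these and of the heart muscle markers in the Nos1 values was not tested.

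**Figure D2:**
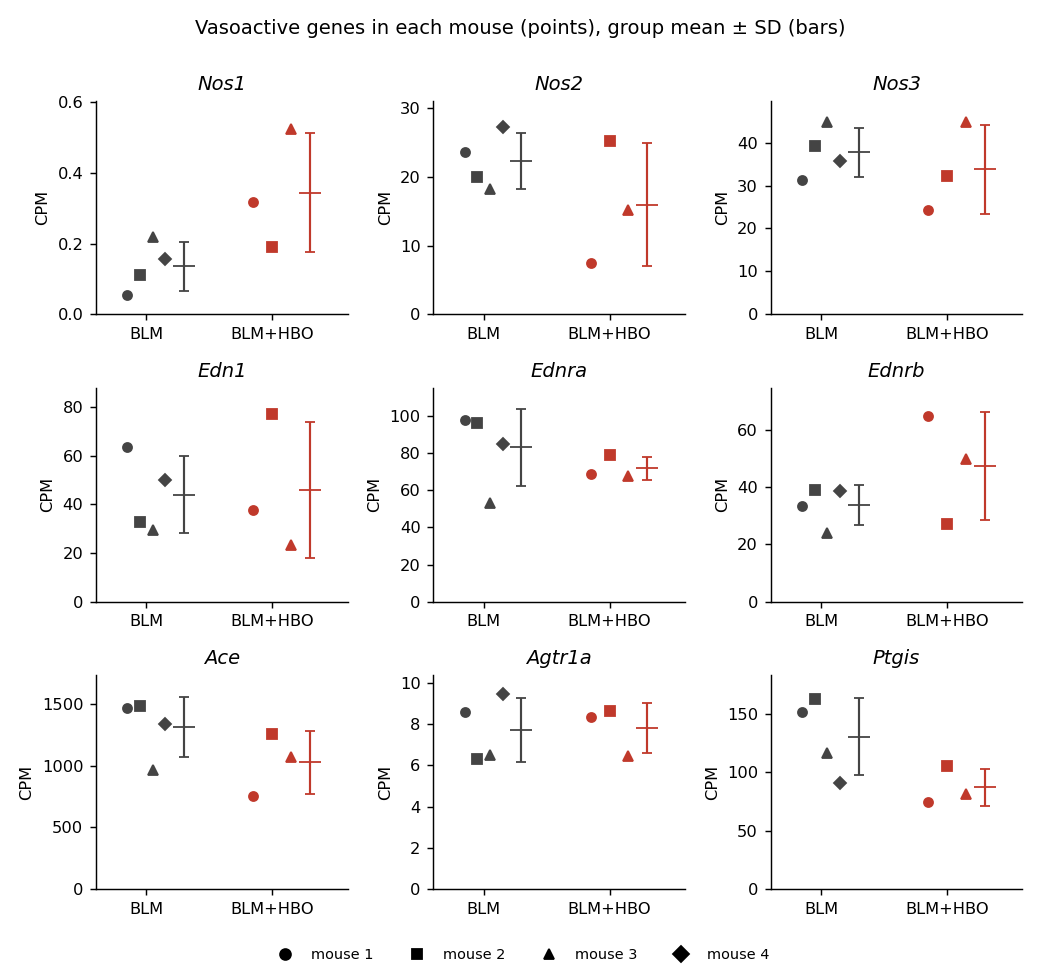
CPM of the 9 genes in each of 4 BLM mice (grey) and 3 BLM+HBO mice (red), with the symbol marking the mouse number and bars the group mean ± SD. In every panel the groups overlap, and for Nos2 and Ednrb the second BLM+HBO mouse (square; 25.3 and 27.2 CPM) lies among the BLM mice.

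Edn1 (ENSMUSG00000021367.8, chr13:42301476-42307990, plus strand) encodes the precursor of endothelin-1. It was at 63.6, 32.7, 29.6 and 50.1 CPM in BLM and at 37.8, 77.1 and 23.1 CPM in BLM+HBO. Both the highest and the lowest value were in BLM+HBO, and the mice of each group were spread more than 2-fold. On the log2 scale the difference was 0.065 (SE 0.39, adjusted P = 0.967 by edgeR). Its sign turned under several alternatives, to -0.53 without the second BLM+HBO mouse and to -0.040 by limma-trend.

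Ednra (ENSMUSG00000031616.7, chr8:77663031-77724464, minus strand) encodes the receptor through which endothelin-1 contracts smooth muscle. It was at 97.7, 96.5, 53.5 and 85.0 CPM in BLM and at 69.0, 79.0 and 67.6 CPM in BLM+HBO. All 3 BLM+HBO mice lay between the third BLM mouse and the other BLM mice. BLM+HBO over BLM gave a log2 fold change of -0.21 (SE 0.19, adjusted P = 0.722 by edgeR).

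Ednrb (ENSMUSG00000022122.15, chr14:103814625-103844402, minus strand) encodes the receptor of the endothelium that clears endothelin and releases nitric oxide and prostacyclin. It was at 33.5, 38.9, 24.0 and 38.5 CPM in BLM and at 64.8, 27.2 and 50.1 CPM in BLM+HBO. The first and the third BLM+HBO mice were above every BLM mouse, and the second was among them. BLM+HBO over BLM gave a log2 fold change of 0.49 (SE 0.27, adjusted P = 0.544 by edgeR). Without the second BLM+HBO mouse it was 0.77 (SE 0.20, edgeR adjusted P = 0.0970), which passed the call limits, as did 10.7% of 17879 genes in that fit. Adjusted P of Ednrb ran from 0.0970 to 0.884 over the alternatives. In the lung Ednrb is known to mark the aerocyte capillary cell. Of 5 other markers of this cell, led by Tbx2 and Car4, 2 were called higher, Fibin and Apln, and the 5 summed to 390 to 565 CPM in BLM and 478, 468 and 556 CPM in BLM+HBO. Most of this sum was Tbx2, at 271 to 339 CPM in BLM and 260, 284 and 297 CPM in BLM+HBO. The log2 fold changes of the other 4 markers were positive. The part of these markers in the Ednrb values was not tested.

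Edn3, another endothelin ligand and one that binds the Ednrb receptor by preference, was called higher in BLM+HBO. It was at 5.50, 7.60, 5.48 and 9.47 CPM in BLM and at 25.7, 8.22 and 15.2 CPM in BLM+HBO. Again the first and the third BLM+HBO mice were above all BLM mice and the second among them. Its log2 fold change was 1.22 (SE 0.35, adjusted P = 0.423 by edgeR, adjusted P = 0.0730 by DESeq2). Adjusted P of Edn3 ran from 0.0143 to 0.802 over the alternatives, the lowest in edgeR with no low-count filter. Ece1, the enzyme that cleaves the endothelin precursors and the gene of highest RPKM in its list, had a log2 fold change of 0.056 (SE 0.13, edgeR). Of the 5 genes listed as endothelin ligands and peptidases, 3 were tested, and Edn3 was the one called by edgeR.

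The sequence before the start site is shown for Ednrb and Edn3, the receptor and the ligand in which the first and the third BLM+HBO mice were highest. Each is the 250 bases upstream of the RefSeq start (GRCm38.p6), read 5′ to 3′ along the gene. Ednrb is at chr14:103843702-103843951 on the minus strand and Edn3 at chr2:174760369-174760618 on the plus strand. The whole Ednrb window lies inside the GENCODE span of the gene given above, so this RefSeq start is not its outermost 5′ end. Capitals mark a match, on either strand, to the core of the hypoxia response element (ACGTG or GCGTG).
Ednrb: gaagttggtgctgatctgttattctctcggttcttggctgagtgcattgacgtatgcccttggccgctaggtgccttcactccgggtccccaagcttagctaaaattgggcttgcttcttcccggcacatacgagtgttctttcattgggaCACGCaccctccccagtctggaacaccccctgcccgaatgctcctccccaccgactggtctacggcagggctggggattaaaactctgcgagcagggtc
Edn3: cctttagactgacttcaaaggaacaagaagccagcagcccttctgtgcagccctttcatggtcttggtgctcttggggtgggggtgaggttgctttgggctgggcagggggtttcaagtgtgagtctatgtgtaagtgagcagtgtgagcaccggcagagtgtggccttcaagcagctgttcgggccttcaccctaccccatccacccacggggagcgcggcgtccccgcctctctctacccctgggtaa
Ednrb held 1 match, CACGC at 99 bases before the start, and Edn3 held none. The same core was in 38.6% of 32851 RefSeq promoters of this length, and windows of Edn1, Ednra, Nos1 and Ace held none. The Nos1 window (chr5:117866589-117866838) also lies inside the span of its gene. A TATA box (TATAAA, either strand) was in 12.4% of promoters and in Ace alone among these 6, as TTTATA at 31 bases before the start. An AP-1 site (TGANTCA, either strand) was in 6.75% of promoters and in none of the 6. Such matches describe the letters, and no binding was measured here. Of the 9 genes, 5 had a promoter in the RefSeq table, and Nos2, Nos3, Agtr1a and Ptgis are only named.

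Ace (ENSMUSG00000020681.14, chr11:105967945-105989964, plus strand) encodes the enzyme that makes angiotensin II and degrades bradykinin. It was at 1470, 1489, 965 and 1341 CPM in BLM and at 754, 1259 and 1074 CPM in BLM+HBO. The lowest value was the first BLM+HBO mouse, the highest 3 were BLM mice, and the third BLM mouse lay among the BLM+HBO mice. The log2 fold change was -0.35 (SE 0.21, adjusted P = 0.572 by edgeR), and it stayed between -0.53 and -0.17 when each mouse was left out.

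Agtr1a (ENSMUSG00000049115.15, chr13:30336441-30382867, plus strand) encodes the main receptor for angiotensin II. It was at 8.58, 6.31, 6.52 and 9.47 CPM in BLM and at 8.34, 8.65 and 6.44 CPM in BLM+HBO. The BLM+HBO values lay inside the BLM range. On the log2 scale the difference was 0.016 (SE 0.22, adjusted P = 0.987 by edgeR), and its sign turned in 4 of the fits with a mouse left out.

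Of 16 genes of the renin-angiotensin list, 11 were tested. Agt, the precursor of the angiotensins, was at 0.384 to 1.24 CPM in BLM and 0.425 to 1.004 in BLM+HBO. Atp6ap2, the prorenin receptor and the gene of highest RPKM in the list, had a log2 fold change of -0.11 (SE 0.10, edgeR). Ren1, Agtr1b, Agtr2, Mas1 and Ctsg were too low to test.

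Ptgis (ENSMUSG00000017969.13, chr2:167191805-167240604, minus strand) encodes the enzyme that makes prostacyclin from the product of the cyclooxygenases. It was at 152, 163, 117 and 90.7 CPM in BLM and at 74.4, 105 and 81.3 CPM in BLM+HBO. The first and the third BLM+HBO mice were below all BLM mice, and the second was above the fourth BLM mouse. Its log2 fold change was -0.59 (SE 0.21, adjusted P = 0.423 by edgeR, adjusted P = 0.208 by DESeq2), with adjusted P from 0.0697 to 0.802 over the alternatives. Its fold of 1.5003 lay barely past the limit, and the call was lost in 7 of 16 alternatives, 4 of them with 1 mouse left out (log2 fold change -0.50 without the first and -0.46 without the second BLM mouse, -0.48 without the first and -0.54 without the third BLM+HBO mouse). Ptgis is known from endothelium, smooth muscle and fibroblasts. Of 8 fibroblast markers, led by Col1a1 and Col1a2, 3 were called lower (Col1a1, Col1a2 and Dcn) and 3 higher (Inmt, Ces1d and Tcf21), and their summed CPM was 5038 to 7671 in BLM and 3329, 5408 and 3751 in BLM+HBO. In BLM this sum was mostly Col1a1, at 1764 to 3129 CPM, and Col1a2, at 1675 to 3035 CPM. In BLM+HBO Col1a1 was at 318, 1803 and 909 CPM and Col1a2 at 482, 1993 and 919 CPM. Log2 fold changes were negative for 4 of the 8 markers and positive for 4, so the sum does not stand for the whole list. Of 7 smooth muscle markers, led by Acta2 and Des, 1 was called lower (Acta2), with a summed CPM of 616 to 926 in BLM and 514, 752 and 582 in BLM+HBO. Acta2 alone was at 290 to 457 CPM in BLM and 177, 314 and 215 CPM in BLM+HBO. Among these 7, log2 fold changes were negative for 4 and positive for 3, so this sum does not stand for the whole list either. Of 7 pericyte markers, led by Pdgfrb and Notch3, none was called (none had an unadjusted P below 0.05 by edgeR), with a summed CPM of 469 to 598 in BLM and 321, 574 and 414 in BLM+HBO. Per 1000 CPM of the pericyte and smooth muscle lists together, Ptgis was 74.7 to 111 CPM in BLM and 79.5 to 89.0 CPM in BLM+HBO, inside the BLM range. This denominator holds Acta2, itself called lower, so the ratio is not a measure of Ptgis per cell of these types. Per 1000 CPM of the endothelial list, Ptgis was 42.1, 38.5, 30.1 and 19.9 CPM in BLM and 16.7, 26.7 and 17.7 CPM in BLM+HBO, with the first and the third BLM+HBO mice below every BLM mouse. The part of these cell types in the Ptgis values was not tested.

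**Figure D3:**
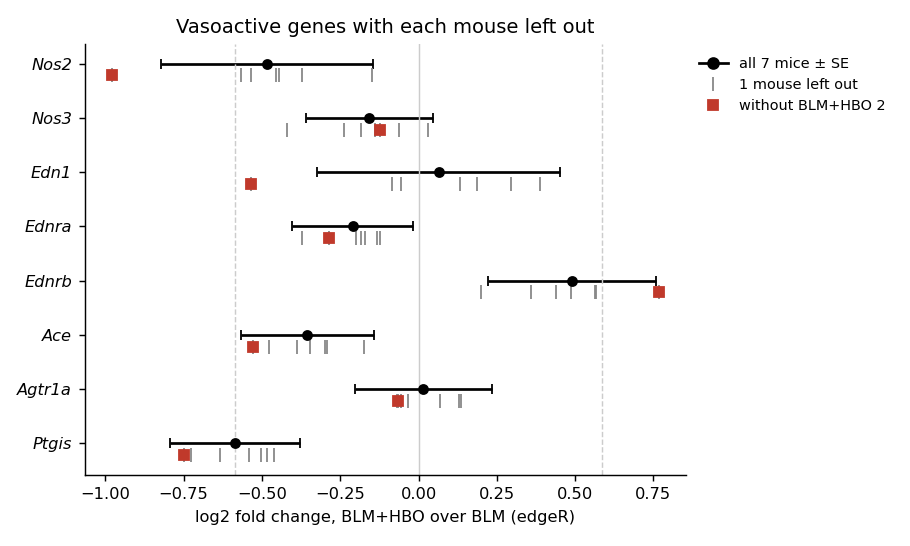
Log2 fold change (BLM+HBO over BLM, edgeR) of the 8 tested genes with all 7 mice (black, ± SE) and with 1 mouse left out at a time (grey ticks; red square without the second BLM+HBO mouse), with dashed lines at the 1.5-fold limits. Leaving out the second BLM+HBO mouse moved Nos2 to -0.98, Edn1 to -0.53 and Ednrb to 0.77.

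Ptgs1 and Ptges stood beside Ptgis in the list of 7 prostacyclin and thromboxane genes. Ptgs1, the constitutive cyclooxygenase, was at 178, 189, 186 and 175 CPM in BLM and at 106, 140 and 130 CPM in BLM+HBO, and the groups did not overlap. Its log2 fold change was -0.54 (SE 0.12, adjusted P = 0.423 by edgeR, adjusted P = 0.0152 by DESeq2), under the 1.5-fold limit. Without the second BLM+HBO mouse it was -0.62 and past both limits, as were 10.7% of 17879 genes in that fit. Ptges, which makes prostaglandin E, was called lower, at 70.5, 69.4, 61.4 and 76.7 CPM in BLM and at 37.7, 55.4 and 37.2 CPM in BLM+HBO, again with no overlap. Its log2 fold change was -0.68 (SE 0.16, adjusted P = 0.423 by edgeR, adjusted P = 0.0307 by DESeq2). Adjusted P ran from 0.0152 to 0.802 for Ptgs1 and from 0.0123 to 0.802 for Ptges over the alternatives. The lowest was that of DESeq2 for Ptgs1 and came from a fit with no low-count filter for Ptges. Ptgs2, the inducible cyclooxygenase, had a log2 fold change of 0.15 (SE 0.39, edgeR), and Ptgir, the prostacyclin receptor, of 0.071 (SE 0.20, edgeR), and both signs turned when some single mice were left out. DESeq2 called 0.779% of the 16434 genes it adjusted at an adjusted P below 0.05, and 0.892% of 16926 when low counts were not filtered first.

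Of the 12 genes that supply arginine and cofactor to the synthases, Arg1 was the one called in the main edgeR fit. DESeq2 and limma-trend also called Slc7a2, an arginine transporter, which had a log2 fold change of -0.64 (SE 0.29, adjusted P = 0.471 by edgeR, 0.0843 to 0.806 over the alternatives). In edgeR it was called with no low-count filter, with a replicate block, and without the third or the fourth BLM mouse or the second BLM+HBO mouse. Without that BLM+HBO mouse its log2 fold change was -1.03 (SE 0.26, edgeR adjusted P = 0.0843). Arg1 encodes arginase, which uses the arginine the synthases need. It was at 130, 69.0, 60.3 and 45.0 CPM in BLM and at 4.68, 22.6 and 6.74 CPM in BLM+HBO. Every BLM+HBO mouse was below every BLM mouse. Arg1 had a log2 fold change of -2.75 (SE 0.56, adjusted P = 0.423 by edgeR, adjusted P = 0.0161 by DESeq2), and adjusted P ran from 1.34e-05 to 0.802 over the alternatives. The lowest came from a fit with no low-count filter. The macrophage markers given with Nos2 are from cells that can make Arg1, and their part in its values was not tested. Ddah2, which degrades a methylated arginine that inhibits the synthases and had the highest RPKM of that list, had a log2 fold change of -0.068 (SE 0.16, edgeR), whose sign turned when some single mice were left out.

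Downstream of nitric oxide, edgeR called none of 11 tested genes of the cyclic GMP response, and none had an unadjusted P below 0.05. DESeq2 called Prkg2, a cyclic GMP kinase, lower, with a log2 fold change of -0.79 in edgeR (SE 0.38, adjusted P = 0.494, 0.150 to 0.807 over the alternatives). edgeR called it as well with no low-count filter, with a replicate block, and without the third or the fourth BLM mouse or the second BLM+HBO mouse. Without that BLM+HBO mouse its log2 fold change was -1.15 (SE 0.40, edgeR adjusted P = 0.196). Gucy1a1, a subunit of the nitric oxide receptor guanylate cyclase, was at 141, 123, 75.6 and 144 CPM in BLM and at 153, 121 and 116 CPM in BLM+HBO (log2 fold change 0.10, SE 0.21 by edgeR, negative without the third BLM or the first BLM+HBO mouse). Vasp, a substrate of the cyclic GMP kinase, had a log2 fold change of -0.18 (SE 0.14, edgeR). None of 4 genes that bind or place the synthases was called, nor had an unadjusted P below 0.05 by edgeR, and Cav1, the caveolin that holds Nos3 inactive, had a log2 fold change of 0.19 (SE 0.17).

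Of 14 other vasoactive peptides and receptors, 11 were tested and Apln was called higher by edgeR. Apln, the ligand of the apelin receptor, was at 26.7, 28.7, 28.3 and 47.5 CPM in BLM and at 45.4, 42.9 and 62.7 CPM in BLM+HBO. Only the fourth BLM mouse reached the BLM+HBO range. Apln had a log2 fold change of 0.62 (SE 0.22, adjusted P = 0.423 by edgeR), and the fold or the P fell short of its limit without BLM mouse 1, 2 or 3 or BLM+HBO mouse 3 (0.42 to 0.56). Calcrl, a receptor for adrenomedullin and the gene of highest RPKM in the list, had a log2 fold change of -0.10 (SE 0.19, edgeR), whose sign also turned.

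Over all 69 listed genes of these pathways, 59 were tested, 3 were called higher (Edn3 and Apln among them) and 2 lower (Arg1 and Ptges), beside the 6.29% called among all tested genes. None passed an adjusted P below 0.05 in edgeR or limma-trend, 8 had an unadjusted edgeR P below 0.05, and 3 passed the adjusted limit in DESeq2 (Arg1, Ptgs1 and Ptges). Their median log2 fold change was 0.03, beside 0.01 over all tested genes. Without the second BLM+HBO mouse, 14 were called (10.7% of all genes in that fit), and 4 of them passed the adjusted limit in edgeR (Arg1, Edn3 and Ptges among them). The share of all genes past the adjusted limit in that fit is not given here. Without the fourth BLM mouse, 10 were called, beside 7.08% of 17233 genes.

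**Figure D4:**
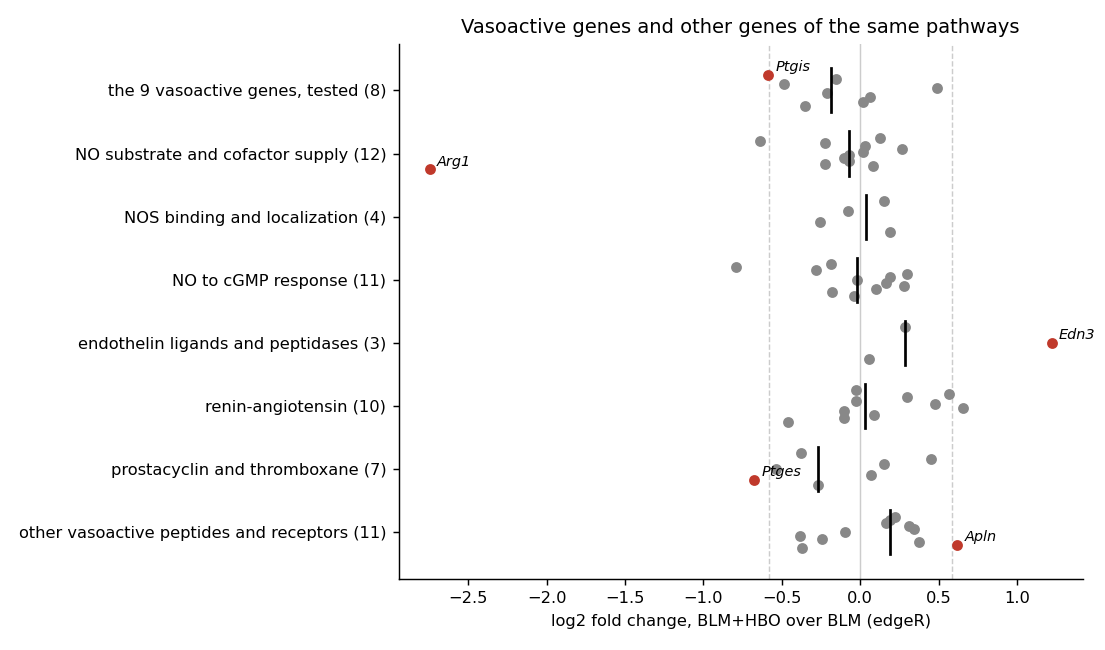
Log2 fold change (BLM+HBO over BLM, edgeR) of each tested gene, 1 row per list with its number of genes, a black bar at the list median and dashed lines at the 1.5-fold limits. Red points with names are called; Arg1 lies farthest from 0 at -2.75, with Edn3 at 1.22 on the other side. A gene not reported in the text is left out of its row.

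Ratios of RPKM within a mouse compared partners with opposed roles. Ednra over Ednrb was 2.27, 1.93, 1.74 and 1.72 in BLM and 0.8288, 2.26 and 1.05 in BLM+HBO. The first and the third BLM+HBO mice were below every BLM mouse and the second lay in the BLM range, so the groups overlapped. Nos3 over Edn1 was 0.255, 0.621, 0.784 and 0.369 in BLM and 0.333, 0.216 and 1.0035 in BLM+HBO, with the lowest and the highest value in BLM+HBO. Per 1000 CPM of the endothelial list, all 9 genes overlapped between groups, with Ace at 249 to 406 in BLM and 169 to 319 in BLM+HBO.

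**Figure D5:**
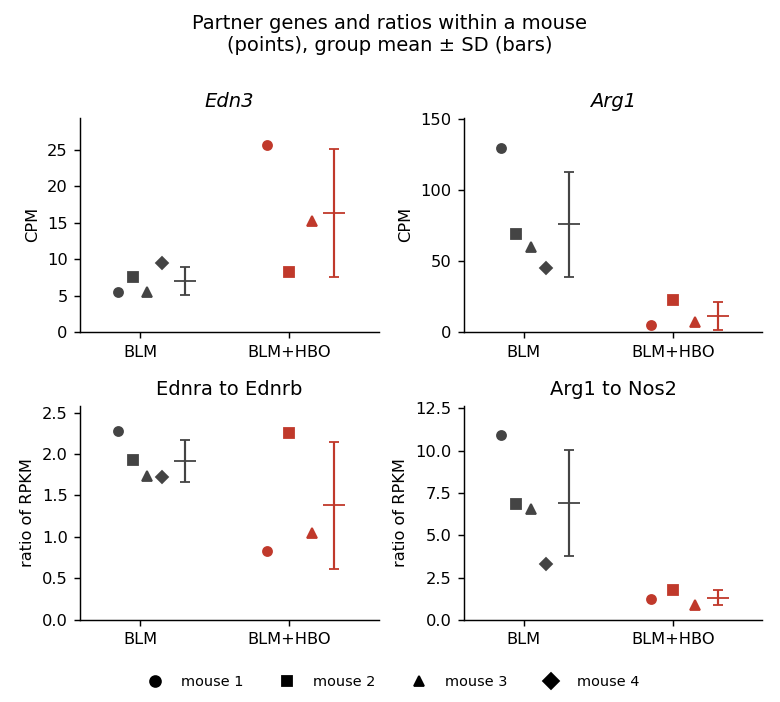
CPM of Edn3 and Arg1 (upper row) and RPKM ratios within a mouse (lower row) in 4 BLM mice (grey) and 3 BLM+HBO mice (red), with the symbol marking the mouse number and bars the group mean ± SD. The second BLM+HBO mouse (square) lies in the BLM range for Edn3 and for Ednra over Ednrb but not in the Arg1 panels, where its 22.6 CPM is still below every BLM mouse.

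As a description over the 7 mice, which share the 2 groups and their library depths, the genes whose log2 CPM followed each gene most closely among 15801 genes were listed by Pearson r. Nos2 was followed by Olr1 (0.992) and, among others, Slc36a1, and Nos3 by Fkbp1a (0.983), Mroh1 and Yipf3. Edn1 was followed by Tbx18 (0.952), Pold4 and Wdr75, Ednra by Tacc1 (0.992), Cbfa2t2 and Vps13c, and Ednrb by Pcdh17 (0.992), Etnk1 and Adgra3. Ace was followed by Ptgfrn (0.991), Rftn2 and Tgm2, Agtr1a by Abhd18 (0.939), M1ap and Gm5454, and Ptgis by Txnl1 (0.995), Palm and Lamtor1. With so many genes and 7 mice, high values arise readily. Among the 9 genes themselves the closest pair was Nos2 and Ace (0.859), followed by Edn1 and Agtr1a (0.810).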

How the data were processed

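RNA from right lung lobes of 4 BLM and 3 BLM+HBO mice had been sequenced as paired ends after NEBNext Ultra preparation. The authors used Trim Galore for trimming and HISAT2 2.2.0 for mapping to GRCm38, and the deposited values were raw counts per gene from featureCounts with default options, which ignore strand and leave out reads of several places or genes. The annotation release was not given in the sources used here. Symbols came from GENCODE vM21 (55141 of 55401 genes matched). Mice were grouped by the sample labels. The 9 genes, the lists and the naming rule were chosen with earlier results of these data known.

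Low counts were removed by filterByExpr (at least 10, total at least 15), and counts were scaled by TMM and tested with edgeR 4.0.16 under R 4.3.3 (quasi-likelihood, Benjamini-Hochberg adjustment over 17465 genes). DESeq2 1.42.0, which the authors used, and limma 3.58.1 were alternatives, with other scalings and filters, a replicate block, stricter limits and each mouse left out. Log2 CPM used a prior count of 2. The scripts were tested on simulated data. Each mouse was 1 replicate, and no 2 libraries of a group were near-identical (chi-square per gene at least 22.1). Named were the 9 genes, called listed genes, the gene of highest RPKM per list, and Agt, Ece1, Gucy1a1, Ptgir and Ptgs2, beside the 2 leading markers of each list set beside a result and any marker at 0. Other called markers, Prkg2 and Slc7a2 were named after their values were seen, and some genes under this rule are not reported here. Equal mouse numbers did not pair the mice.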

Additional observations from a re-analysis of the deposited data

Results flagged for a closer look

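Among 31 sets of values over the same 4 BLM mice examined for a mouse far from the others, 3 had one. Chance alone gives about 1 in 20 for independent sets. These sets came from the same mice, so that rate is only a rough guide. Apln was at 47.5 CPM in the fourth BLM mouse, while the other BLM mice were at 26.7 to 28.7 CPM. The summed CPM of the smooth muscle markers was 616 in the fourth BLM mouse and 885 to 926 in the others. The summed CPM of the pericyte markers was 469 in the third BLM mouse, which also had the lowest Ednra, Ednrb and Ace of the BLM mice, and 582 to 598 in the others.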

How the results depend on the processing

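Of the 9 genes, the number called was 1 and became 0 with limma-trend, upper-quartile factors, a filter of 1 CPM in 3 mice, a fold change limit of 2 or a P limit of 0.01, and 0 to 3 with each mouse left out. At the adjusted P limit it was 0 under every alternative run. Of the pathway genes, 5 were called, 8 with no low-count filter and 2 at a fold change limit of 2, and 4 to 14 with each mouse left out. In the same fits edgeR called 5.9% of all genes with no low-count filter and 3.7% to 10.7% with a mouse left out. The share of all genes at a fold change limit of 2 is not given here. At the adjusted limit the count was 0, 3 by DESeq2, 3 by DESeq2 without the low-count filter (an alternative chosen after seeing the data), 5 in edgeR with no low-count filter, and 0 to 4 with each mouse left out. Of all genes, DESeq2 called 0.779% at this limit, and 0.892% without the low-count filter. For the edgeR alternatives that share is not given here, so their counts, also those of the markers below, have no background to stand beside. Of the 97 listed marker genes, not all of which passed the filter, 26 were called, and 13 to 36 with each mouse left out, and 0 to 8 at the adjusted limit. The 26 stand beside 6.29% of all tested genes, and 10 of them were heart muscle markers. With the mouse number as a replicate block, 1 of the 9 genes and 9 pathway genes were called, beside 7.2% of all genes. Deviations of equally numbered mice correlated at -0.008, -0.066 and 0.161, so the numbers were not read as pairs.

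Signs turned when single mice were left out, over ranges of -0.42 to 0.032 for Nos3, -0.53 to 0.39 for Edn1, -0.070 to 0.13 for Agtr1a, -0.060 to 0.13 for Ece1, -0.066 to 0.20 for Gucy1a1, -0.010 to 0.26 for Ptgir, -0.10 to 0.42 for Ptgs2, -0.18 to 0.047 for Ddah2 and -0.22 to 0.034 for Calcrl (log2 fold change). By limma-trend the value of Edn1 was -0.040. The causes were not tested. The order of levels (9 of 9 ranks) held with TPM and with unscaled library sizes, and no scaling moved the median of all genes by more than 0.025.

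With 3 and 4 mice, an exact test of 1 value cannot go below 0.0286. Depth limited Nos1, with at most 14 reads in a library. Counting without strand left Nos3 uncertain.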

Other observations

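The RPKM ratio of Arg1 to Nos2, enzymes that use the same arginine, was 10.9, 6.86, 6.56 and 3.28 in the 4 BLM mice and 1.25, 1.78 and 0.888 in the 3 BLM+HBO mice. The groups did not overlap, and the second BLM+HBO mouse, which lay near the BLM mice in Nos2, was below all of them here. Arg1 alone already separated the groups, so this ratio shows nothing further about Nos2. This pair was chosen after its values were seen, so no test is given. The ratio of Ednrb to Fibin, another aerocyte marker and also chosen after its values were seen, was 0.591 to 0.817 in BLM and 0.567 to 0.824 in BLM+HBO, with full overlap.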
